A study of Mus musculus with 12 samples.

Results

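Apolipoproteins are the protein components of lipoprotein particles, which carry triglyceride and cholesterol through blood and other body fluids. The genes described here are 10 of them, Apoa1, Apoa2, Apoa4, Apoa5, Apob, Apoc1, Apoc3, Apod, Apoe and Apoh, found by gene symbol among the 55450 genes of the expression table. Each symbol matched 1 row. Total RNA of brain and of liver was sequenced from males 7 to 9 weeks old, with 3 libraries in each of 4 groups: wild-type brain, knockout brain, wild-type liver and knockout liver. The wild-type mice are Vaultrc5+/+ in the protocol and carry "flx" in their sample titles, and the knockout mice are Vaultrc5-/-, lacking the gene of a short non-coding RNA of the vault particle. How the knockout was made, the strain and the brain region taken are not given in the sources used here, and the labels do not say that the 3 libraries of a group came from separate animals, so p-values measure the spread between these libraries.

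The liver makes most plasma apolipoproteins. Apob is the large structural protein of very low density and low density lipoproteins, Apoa1 and Apoa2 are the main proteins of high density lipoprotein, and the small Apoc proteins and Apoa5 modulate the lipases that clear triglyceride. The brain is separated from plasma lipoproteins by the blood-brain barrier and has its own lipid carriers: Apoe, a ligand of the low density lipoprotein receptor family, comes mainly from astrocytes, and Apod, a lipocalin that binds small hydrophobic molecules, from oligodendrocytes, astrocytes and vascular cells. Apoh, also called beta-2-glycoprotein I, binds anionic phospholipids.

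The brain libraries held 14844971 to 18567381 counts each and the liver libraries 23247449 to 27155480. Vaultrc5 itself had 33, 39 and 48 counts in the wild-type livers and 4, 1 and 4 in the wild-type brains, against 0 in all 6 knockout libraries, as the labels have it. Alb, the hepatocyte albumin gene, had 714287 to 1350529 counts in liver and 0 to 5 in brain, and the neuronal gene Snap25 had 31003 to 40259 in brain and 0 to 3 in liver. Levels are given as CPM, counts scaled to a library's effective size after TMM scaling over all 12 libraries. On that scale the floor of 3 counts lies between 0.123 and 0.169 CPM in a library, and intervals and floors from counts cover counting error only.

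On the GRCm38 build, with GENCODE M21 gene models (1-based), 4 of the genes stand within 43340 nucleotides of chromosome 9: Apoa1 (chr9:46228580-46230466, plus strand), Apoc3 (chr9:46232933-46235636, minus strand), Apoa4 (chr9:46240696-46243459, plus strand) and Apoa5 (chr9:46268633-46271919, plus strand). Apoc1 (chr7:19689481-19692660) and Apoe (chr7:19696109-19699188) are neighbours on the minus strand of chromosome 7, 3448 nucleotides apart. The others stand alone: Apoa2 at chr1:171225054-171226379 (plus), Apob at chr12:7977648-8016835 (plus), Apod at chr16:31296192-31314808 (minus) and Apoh at chr11:108343354-108414396 (plus). All are protein coding, and the deposited counts of all 10 were whole numbers in all 12 libraries. Apoa4, Apoa5 and Apoh overlap exons of genes on the opposite strand (Gm47528 and Gm10680, Gm47544, and Prkca); the library kit keeps strand, but whether the counting used it is not given in the sources used here.

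The RefSeq promoter table for GRCm38.p6 held 8 of the 10 genes, without Apoc1 and Apoc3. Shown are the 250 bases before the start site of the 4 genes whose RefSeq and GENCODE starts coincide, since they cover the 3 patterns described next: Apoa2 and Apoa5 in liver, Apod in brain, and Apoe in both. Each reads 5′ to 3′ along the gene's strand, and capitals mark any match to the TATA core TATAAA or to the C/EBP palindrome TTGCNNAA, searched on both strands.
Apoa2, chr1:171224804-171225053, plus strand: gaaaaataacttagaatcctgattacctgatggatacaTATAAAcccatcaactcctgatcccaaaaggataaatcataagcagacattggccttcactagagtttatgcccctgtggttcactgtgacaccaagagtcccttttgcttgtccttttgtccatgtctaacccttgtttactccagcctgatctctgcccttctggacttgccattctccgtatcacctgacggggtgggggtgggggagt
Apoa5, chr9:46268383-46268632, plus strand: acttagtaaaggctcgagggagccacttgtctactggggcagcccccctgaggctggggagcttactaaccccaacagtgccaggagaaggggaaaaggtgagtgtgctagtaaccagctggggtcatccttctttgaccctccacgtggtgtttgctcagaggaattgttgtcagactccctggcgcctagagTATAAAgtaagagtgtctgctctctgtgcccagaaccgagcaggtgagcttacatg
Apoe, chr7:19699189-19699438, minus strand: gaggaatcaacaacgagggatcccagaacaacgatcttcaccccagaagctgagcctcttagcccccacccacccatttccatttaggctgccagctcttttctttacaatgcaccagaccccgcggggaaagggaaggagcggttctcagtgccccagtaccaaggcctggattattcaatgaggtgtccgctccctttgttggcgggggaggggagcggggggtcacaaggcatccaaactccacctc
Apod, chr16:31314809-31315058, minus strand: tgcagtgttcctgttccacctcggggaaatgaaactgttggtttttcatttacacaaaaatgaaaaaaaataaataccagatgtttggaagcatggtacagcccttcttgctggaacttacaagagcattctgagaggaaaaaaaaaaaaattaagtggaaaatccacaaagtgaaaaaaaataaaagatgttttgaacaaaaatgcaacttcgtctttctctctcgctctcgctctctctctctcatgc
TATAAA lay at -56 to -51 from the start in Apoa5 and at -212 to -207 in Apoa2, and neither pattern was in the windows of Apoe and Apod. Among the 8 genes, TATAAA was in the windows of 3 (Apoa2, Apoa5 and Apob), against 12.4% of the 32851 promoters of the table. TTGCNNAA was in 1 (Apob), against 9.56%. CAAAGTCCA, a core of elements bound by the hepatocyte factor HNF4, was in none, against 0.384%. At that share a match in 8 windows was unlikely beforehand, and only these exact letters were searched. Its absence therefore does not tell whether these windows hold HNF4 elements. The Apod window had 36.4% G and C and the Apoe window 57.2%, with a median of 52.4% over all promoters.

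The 10 genes fell into 3 patterns of level by tissue. Apob, Apoa1, Apoa2, Apoa4, Apoa5, Apoc1, Apoc3 and Apoh had 920 to 414244 counts in each liver. In a brain library they had 0 to 5, except for Apoa2 with 9 and 7 counts in wild-type replicate 3 and knockout replicate 2, and Apoa1 with 11 and Apob with 34 in wild-type replicate 1. Apod had counts in all 6 brains and 0 in all 6 livers. Apoe was well above the floor in all 12 libraries. Together the 10 genes took 2.95% to 3.43% of all counts in a liver library and 0.0425% to 0.0583% in a brain library. Apob gave the largest part of that sum in liver, 40.5% to 50.8%, and Apoe in brain, 74.8% to 87.2%. In bulk tissue, fewer cells of a type and less RNA per cell cannot be told apart.

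**Figure D1:**
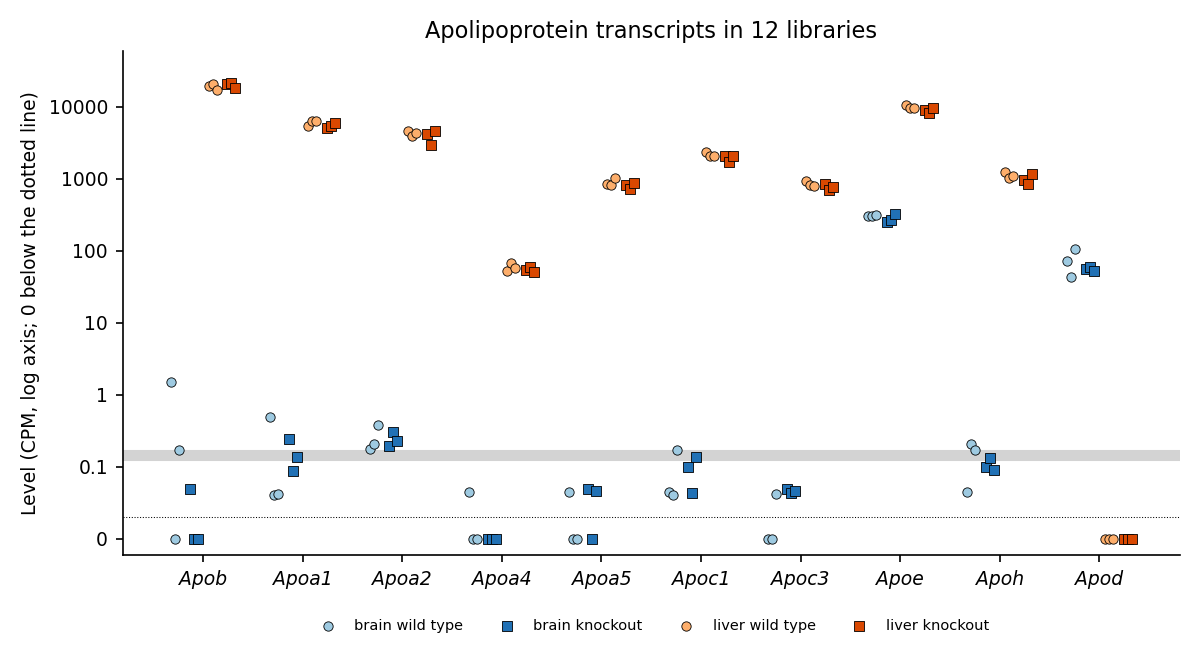
Level of each of the 10 genes (CPM, log axis, with 0 drawn below the dotted line) in each of the 12 libraries, circles for wild type and squares for knockout; the grey band is the range of the floor of 3 counts. Apoe is the gene with points far above the band in both tissues, and Apod is at 0 in every liver. In brain the remaining genes lie at 0, or below, within or somewhat above the band. The highest of these points are Apob at 1.51 CPM and Apoa1 at 0.49 CPM, both in wild-type replicate 1.

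Apoe had 309.54, 303.51 and 317.22 CPM in the wild-type brains and 255.03, 268.64 and 328.04 CPM in the knockout brains. In liver it had 10666.86, 9641.85 and 9590.22 CPM in wild type and 9149.87, 8154.41 and 9597.84 CPM in the knockout. Every liver was above every brain. The difference between brain and liver was -5.00 ± 0.17 (log2, SE) in wild type, a level 32.0-fold higher in liver (95% interval 24.2 to 42.3; adjusted p = 1.75e-07, edgeR quasi-likelihood test). In the knockout it was -5.00 ± 0.21, or 31.9-fold (adjusted p = 6.06e-07). Of all genes tested in this contrast, 78.6% passed in wild type and 78.7% in the knockout. Scaled by library totals in place of TMM, the Apoe difference was 17.9-fold and 17.4-fold in these genotypes, and the median difference over all genes moved from 0.21 to 1.05 (log2) in wild type.

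The 2 genes with a pattern most like that of Apoe over the 12 libraries were Cbs and Gcdh, out of 9546 candidates, by the root-mean-square difference of log2(CPM + 0.5) after each gene was centred on its own mean. That difference was 0.109 for Cbs, an enzyme of homocysteine metabolism, and 0.129 for Gcdh, a mitochondrial dehydrogenase of lysine breakdown. The likeness rests mostly on the difference between tissues, which was -4.95 and -5.04 (log2) for these genes and -4.99 for Apoe on the same scale.

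Clu, which encodes the other abundant lipid carrier of brain, clusterin (apolipoprotein J), had 276 ± 25.1 CPM in wild-type brain and 277 ± 37.3 CPM in knockout brain (SD, n = 3). Within a brain library, the ratio of Apoe to Clu counts was 0.895 to 1.25. In liver the same ratio was 3.97 to 7.53, lowest in knockout replicate 2.

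Apod had 73.30, 43.95 and 106.14 CPM in the wild-type brains and 56.41, 60.03 and 52.86 CPM in the knockout brains. The wild-type libraries were spread widely, from below to above all 3 knockout libraries, with a mean of 74.5 ± 31.1 CPM against 56.4 ± 3.58 CPM (SD, n = 3). With 0 counts in every liver, Apod was at least 470-fold higher in brain in wild type and at least 342-fold higher in the knockout, against a floor of 3 counts in each liver library. On library totals these bounds were 848-fold and 618-fold.

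The Apod level was set beside the markers of 6 cell types in the brain libraries. The summed level of Mbp, Mog, Mobp, Cnp and Mag was 1794, 1106 and 3648 CPM in the wild-type brains and 1298, 2051 and 1259 CPM in the knockout brains, with none of the 5 markers at 0. Wild-type replicate 3 was highest and wild-type replicate 2 lowest in both the Apod level and the marker sum. Over the 6 libraries, on log2 levels, Pearson's r was 0.94 and Spearman's rho 0.94; the marker list was shortened by 1 gene with its values known, so these are descriptions with no test. Without wild-type replicates 2 and 3, r was 0.65, and 3 libraries in a genotype were too few for a coefficient within it. For Apoe and the same marker sum r was 0.16 and rho 0.03, and r was -0.17 without the same libraries. The other 5 marker lists gave 10 relations with Apod and Apoe, over which p-values of two-sided exact permutation tests were adjusted, and none passed. Apod had r = -0.80 with the neuron markers (exact p = 0.0486, adjusted p = 0.486; rho -0.77, exact p = 0.103; r -0.72 without wild-type replicates 1 and 2) and r = 0.69 with the choroid plexus markers (exact p = 0.128, adjusted p = 0.639; rho 0.54, exact p = 0.297; r 0.89 without wild-type replicate 2 and knockout replicate 1). With the remaining lists, r of Apod was between -0.34 and 0.38. Apoe had r = 0.53 with the meningeal and vascular fibroblast markers (rho 0.66; exact p = 0.268, adjusted p = 0.790, for r). Its r was 0.19 with the astrocyte markers, and -0.64 without wild-type replicate 1 and knockout replicate 1. With the other lists, r of Apoe was between -0.22 and 0.07. The astrocyte sum is mostly Slc1a2, and its markers did not move alike: Gfap had 65.9, 50.7 and 165.6 CPM in the wild-type brains, highest and lowest in the same libraries as Apod, where Slc1a2 had 2422, 3698 and 2922 CPM. The part any of these cell types has in the Apod values was not tested.

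**Figure D2:**
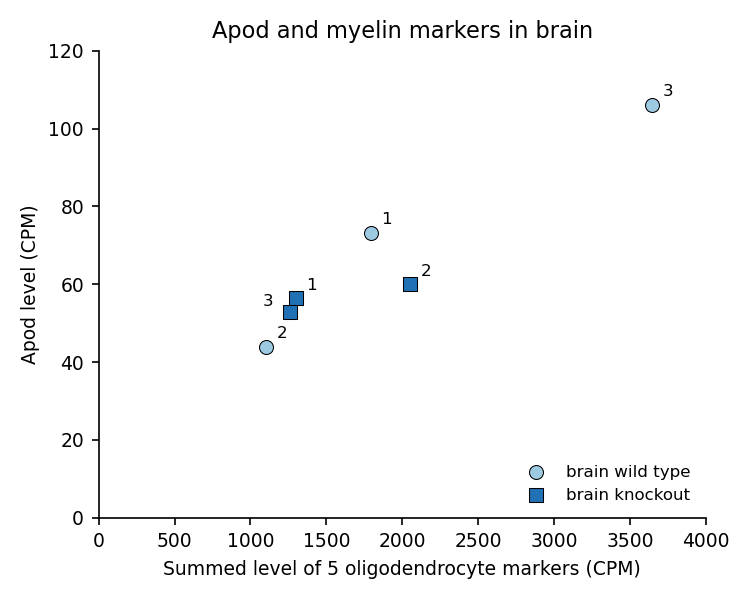
Apod level (CPM) in each brain library against the summed level of 5 oligodendrocyte markers (CPM), circles for wild type and squares for knockout, with the replicate number beside each point. Wild-type replicate 3 stands apart at 3648 CPM of markers and 106.14 CPM of Apod.

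In liver, levels of different genes were compared per kilobase of the principal transcript, since Apob is 13934 nucleotides long and Apoa2 518. The wild-type order by mean CPM per kilobase was Apoa2 (8359), Apoe (7078), Apoa1 (5776), Apoc1 (4105), Apoc3 (1626), Apob (1372), Apoh (942), Apoa5 (358) and Apoa4 (32.5). Apoa2 and Apoe overlapped between libraries in both genotypes, and Apoc3 and Apob did in the knockout. The other neighbours in the order did not overlap in either genotype. Measured per kilobase of all annotated exons instead, Apoa1 came before Apoe and Apob before Apoc3. The order had Apoa2, Apoe and Apoa1 at its head and Apoa4, best known as an intestinal apolipoprotein, at its end.

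**Figure D3:**
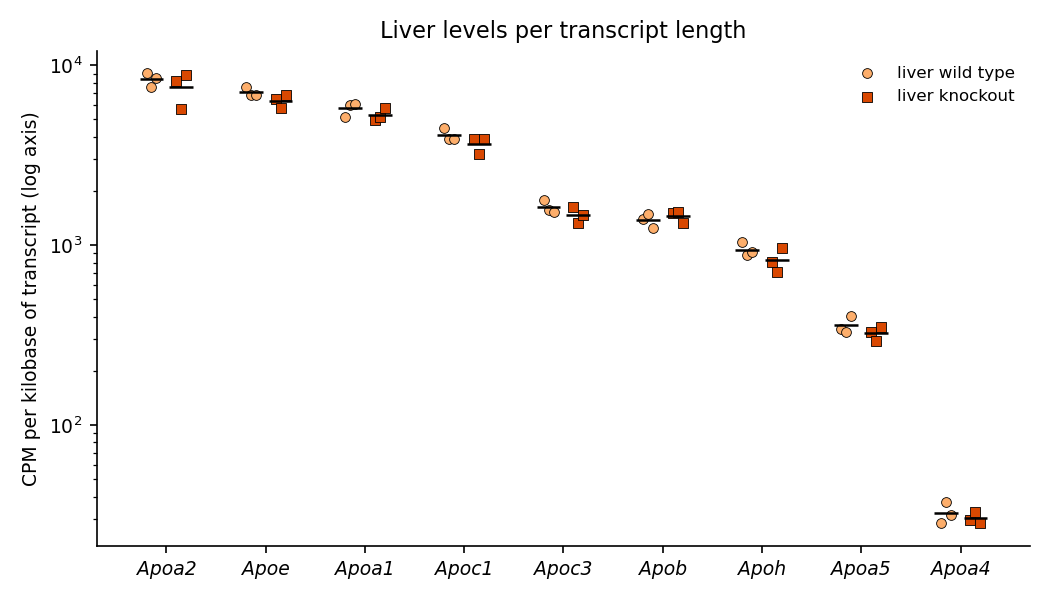
Level in liver (CPM per kilobase of the principal transcript, log axis) of the 9 genes with counts there, one point per library, circles for wild type and squares for knockout, with a bar at each group's mean. Apoa2, Apoe, Apoa1 and Apoc1 lie above the other genes in every library, and Apoa4, at 32.5 in wild type, lies far below Apoa5, at 358.

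Apob, as CPM without length, was the highest of the 10 genes, with 19462.78, 20645.49 and 17255.36 CPM in the wild-type livers and 20988.61, 21200.23 and 18433.43 CPM in the knockout livers. The wild-type brains had 34, 0 and 4 Apob counts and the knockout brains 1, 0 and 0. The 34 counts came from wild-type replicate 1, which also had the most Apoa1 counts of any brain, 11 against 1 to 5. In that library Alb had 5 counts, the highest of the brains, and its part in the Apob and Apoa1 counts was not tested.

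Apoa1, the activator of the cholesterol-esterifying enzyme LCAT, had 5350.97, 6265.70 and 6319.24 CPM in the wild-type livers and 5146.85, 5363.25 and 5956.65 CPM in the knockout livers. Apoa2 had 4680.19, 3918.89 and 4391.00 CPM in wild type and 4230.37, 2958.99 and 4566.91 CPM in the knockout. The ranges of the genotypes overlapped for both genes. Knockout replicate 2 was the lowest for Apoa2, and the ratio of Apoa1 to Apoa2 counts ran from 1.14 in wild-type replicate 1 to 1.81 in that library. In brain the pooled counts of Apoa2 were 18 in wild type and 16 in the knockout, with liver over brain ratios of 16862 (95% exact counting interval 10669 to 28451) and 15873 (9774 to 27770). These were 9403 and 8783 on library totals.

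Apoc1, a small protein that inhibits lipoprotein uptake and lipid transfer, had 2389.81, 2081.28 and 2079.71 CPM in the wild-type livers and 2058.85, 1699.49 and 2065.59 CPM in the knockout livers. It kept a narrow ratio to its neighbour Apoe, with 4.44 to 4.80 Apoe counts for each Apoc1 count in the 6 livers. In brain the ratio was 1855 to 7396, with 1 to 4 Apoc1 counts in a library against 5158 to 7421 of Apoe. Apoc3, an inhibitor of lipoprotein lipase, had 801 to 942 CPM in wild-type liver and 698 to 860 CPM in knockout liver, and 0 or 1 count in each brain. Apoh had 1043 to 1232 CPM in wild-type liver, 839 to 1152 CPM in knockout liver and 1 to 5 counts in a brain.

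Apoa5, an activator of triglyceride breakdown by lipoprotein lipase, had 830 to 1012 CPM in wild-type liver and 733 to 877 CPM in knockout liver. Apoa4 was the lowest of the 9 genes in liver, with 51.86, 67.93 and 57.10 CPM in wild type and 53.79, 59.18 and 51.61 CPM in the knockout. Within a liver there were 12.2 to 17.7 Apoa5 counts for each Apoa4 count. In brain the 2 genes had 0 or 1 count in every library. Against the floor in knockout brain, where all libraries were at 0, Apoa4 was at least 393-fold higher in liver (217-fold on library totals). The 8 liver genes entered the tissue test through liver alone, and Apod through brain alone, so that their passing it was bound to follow and no count of them is given as support.

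The study asks whether loss of Vaultrc5 alters expression in each tissue. In brain, only Apoe and Apod of the 10 genes had enough counts to be tested, and neither passed. Of all 18075 genes tested there, 0.0% passed in edgeR, 122 had an unadjusted p under 0.05 (0.675%), and DESeq2 called 0. Apoe differed by -0.14 ± 0.12 between knockout and wild type (log2, SE; 95% interval -0.43 to 0.15; adjusted p = 1.00), and by -0.26 without knockout replicate 3 or -0.064 without knockout replicate 1. Apod differed by -0.42 ± 0.30 (-1.12 to 0.29; adjusted p = 1.00), with the knockout libraries inside the wild-type range. Both estimates lay below 0, as did those of 51.7% of all genes tested in brain. The Apod value rested on single wild-type libraries: it was -0.06 without wild-type replicate 3 and -0.68 without wild-type replicate 2.

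In liver, 9 of the 10 genes were tested and none passed. Of all 15329 genes, 0.0% passed in edgeR and 536 had an unadjusted p under 0.05 (3.5%), none of them among the 9, while DESeq2 called 10 genes, again without any of the 9. With replicate number as a block, 2 genes passed and 983 had an unadjusted p under 0.05, and none of the 9 passed. The estimates lay below 0 for 8 of the 9, where 48.7% of all genes were below 0, and their median was -0.14 (log2) against 0.01 over all genes. These 8 lay between -0.18 and -0.10, from Apoh at -0.18 ± 0.15 (SE; 95% interval -0.53 to 0.18) to Apoa4 at -0.10 ± 0.11 (-0.36 to 0.17). Apob was the exception, at 0.09 ± 0.16 (-0.28 to 0.45). Every interval held 0, and the adjusted p was 0.992 for each gene. With the replicate block every interval held 0 too, and the adjusted p ran from 0.843 for Apoh to 0.925 for Apob.

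**Figure D4:**
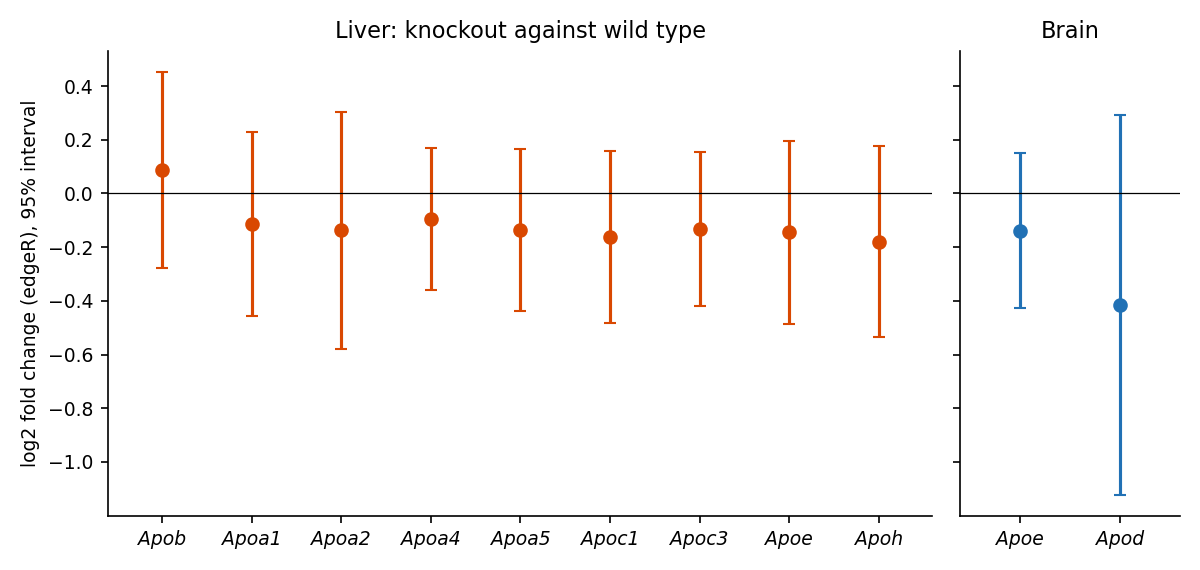
Difference between knockout and wild type (log2 fold change from edgeR) with its 95% interval for the 9 genes tested in liver and the 2 tested in brain. Every interval crosses 0, and the interval of Apod in brain is the widest.

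On the TMM scale, Apoc1 was the 1 gene of these whose genotypes did not overlap in liver. Its highest knockout library was at 2065.59 CPM and its lowest wild-type library at 2079.71. On library totals the genotypes overlapped for Apoc1, with wild-type replicate 2 at 1537.81 CPM and knockout replicate 3 at 1583.79. Its difference was -0.16 ± 0.14 (log2, SE; 95% interval -0.48 to 0.16; adjusted p = 0.992), and 5.45% of all genes tested had every knockout library below every wild-type library. Knockout replicate 2 was the lowest of the 6 livers for Apoc1, Apoc3, Apoa2, Apoa5, Apoe and Apoh. Within the 3 pairs of same-numbered livers, Apoa1, Apoa5, Apoc1 and Apoc3 were lower in the knockout in 3 of 3, the other genes with estimates below 0 in 2 of 3, and Apob in 0, where 14.8% of all genes tested were lower in 3 of 3. Without knockout replicate 2, Apoa2 was at 0.02, Apoh and Apoc1 at -0.08, Apoe at -0.09, Apoa5 and Apoc3 at -0.07 and Apob at 0.04, while Apoa1 was at -0.11 and Apoa4 at -0.16. Without knockout replicate 3 the estimates were farther from 0 for Apoh (-0.32), Apoa2 (-0.28), Apoc1 (-0.22), Apoe (-0.21), Apoa5 (-0.21) and Apoa1 (-0.19). Other livers moved single genes too: Apoa5 was at -0.045 and Apob at 0.018 without wild-type replicate 3, Apoc3 at -0.053 without wild-type replicate 1, and Apoa1 at -0.053 without knockout replicate 1. Of the 6 hepatocyte markers, Alb, Ttr, Cps1 and Serpina1c were lowest of the 6 livers in knockout replicate 2, Tat lay within the range of the others, and Fgb, a fibrinogen gene, was highest, at 8938 CPM against 4605 to 5062 CPM. The summed level of 6 microglia and macrophage markers was 289 CPM in knockout replicate 2 and 124 to 172 CPM in the other livers. The part these have in the apolipoprotein values was not tested. Apoa4 was at 0.01 without wild-type replicate 2, in which it was highest.

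An interaction term, fitted on the 12 libraries together, tested whether the knockout effect was different in brain and liver. Its value is the knockout effect in liver minus that in brain. None of the 10 genes passed, and of all 20141 genes 0.0% passed in edgeR and 489 had an unadjusted p under 0.05 (2.43%), with 1 called by DESeq2 and 2 with the replicate block. Apoe, the gene measured well in both tissues, gave -0.03 ± 0.20 (log2, SE; 95% interval -0.48 to 0.43). Apob gave 4.76 ± 1.73 (unadjusted p = 0.0185, adjusted p = 1.00 in edgeR, 0.182 with the replicate block), a value that rests on few brain counts: it was 2.17 without wild-type brain replicate 1, which held 34 of them, and 6.56 without knockout brain replicate 1, which held the 1 knockout count.

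Other genes of lipoprotein metabolism were counted from 6 lists with 60 genes: other apolipoproteins, assembly and secretion, lipases and their modulators, cholesterol efflux and remodelling, receptors and uptake, and transcriptional regulators. Of these, 16 had fewer than 10 counts in every brain, 5 of them among the other apolipoproteins, and 1, Lrp8, in every liver. They entered the test through 1 tissue, so that their direction was bound to follow, and they are left out of the counts between tissues. Of the remaining 43, 33 were higher in liver and 8 in brain in wild type, and likewise 33 and 8 in the knockout. On library totals the counts were 28 and 9 in wild type and 29 and 9 in the knockout. Over all genes, 43.9% were higher in wild-type brain and 34.7% higher in liver, or 8275 and 6542 genes, which became 11635 and 3997 on library totals.

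Clu, all 10 assembly genes and all 4 lipase genes counted were higher in liver, and on library totals in wild type Clu, 9 and 4 were. Mttp, which loads lipid onto Apob, had 7.21 ± 0.883 CPM in wild-type brain and 410 ± 28.8 CPM in wild-type liver (SD, n = 3). The 12 receptors counted were divided, with 4 higher in brain and 8 in liver (4 and 6 on library totals in wild type). Lrp8, the receptor for Apoe and reelin also known as ApoER2, had 74.6 ± 9.18 CPM in wild-type brain and 0.156 ± 0.0812 CPM in liver. Sorl1, a sorting receptor that binds Apoe, had 477 ± 93.5 CPM and 4.78 ± 0.533 CPM. Efflux genes were divided too, with 3 higher in brain and 2 in liver: Abcg1, which passes cholesterol to high density lipoprotein, was 2.13 (log2) higher in brain, and Abca1, which lipidates Apoa1 and Apoe, was higher in liver, at -3.37 (log2, brain against liver). Of the 10 regulators counted, 8 were higher in liver and 1, Ppargc1a, in brain, or 6 and 2 on library totals in wild type.

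Between genotypes, none of the 43 list genes tested in brain and none of the 58 tested in liver passed in edgeR. An unadjusted p under 0.05 was found for 1 and 3 of them, against 0.675% and 3.5% of all genes tested. With the replicate block in liver none passed and 8 of the 58 had one, as did 983 of all 15329 genes. The smallest p in brain was that of Lpl, the lipoprotein lipase gene, with 7.62 CPM in wild type and 12.2 CPM in the knockout (0.66 ± 0.23 log2, SE; adjusted p = 1.00). In liver it was that of Cebpa, a hepatocyte transcription factor gene, with 435 CPM in wild type and 346 CPM in the knockout (-0.32 ± 0.10; adjusted p = 0.992). With the replicate block it was that of Lipg, the endothelial lipase gene (-0.66 ± 0.10; adjusted p = 0.268, against -0.62 ± 0.40 and 0.992 without the block). For the interaction, none of the 60 passed, and Trem2, a microglial receptor for lipids and Apoe, had the smallest p (1.53 ± 0.71; adjusted p = 1.00). Its liver counts were 2, 8 and 6 in wild type against 7, 26 and 8, with the 26 in knockout replicate 2, and the value was 0.64 without that library.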

How the data were processed

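The authors deposited expected counts per gene for each of the 12 libraries, neither normalized nor pooled. Per the submitters' processing notes, cutadapt and STAR were used with the mm10 build; their versions, what counted the reads and whether strand was used are not given in the sources used here. Per the labels' protocols, RNA was extracted with TRIzol, treated with DNase and depleted of ribosomal RNA for a stranded ligation kit read from 1 end, so transcripts without a poly(A) tail were kept. From 5.06% to 5.71% of a library's values had decimals, and all were rounded.

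Genes were tested by quasi-likelihood in edgeR 4.0.16 under R 4.3.3 (TMM, robust estimation, filterByExpr by group with a minimum count of 10 and a minimum total of 15) on all genes passing the filter, with Benjamini-Hochberg adjustment and a threshold of 0.05, and DESeq2 1.42.0 was an alternative. Each comparison was fitted on its own 6 libraries and the interaction on all 12. The scripts were tested on simulated data. CPM use TMM effective library sizes over the 12 libraries, and ratios of pooled counts have exact binomial intervals (95%).

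Replicate numbers come from the titles. Deviations of same-numbered livers of both genotypes correlated at 0.31, 0.31 and 0.37, all over 0.1, so the numbers were taken to pair the livers, and the fit with that block is given beside the counts it moves in liver.

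All 10 apolipoprotein genes are named. List genes are named where they pass in a genotype comparison or the interaction, otherwise the 1 with the smallest p there, and up to 2 in each direction per list between tissues, of which some are printed. For likeness to Apoe the rule names 3 genes, of which 2 are given; the other, and an oligodendrocyte marker left out of the marker sum after seeing the data, are not reported here. Clu was added after its values were seen. Members and lists were chosen with earlier results of these data known. Alternatives were other scalings, filters and tools, the replicate block, leaving out each library, and, chosen after seeing the data, library totals for count ratios and all exons for length.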

Additional observations from a re-analysis of the deposited data

How the results depend on the processing

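The count of apolipoprotein genes past the threshold between genotypes was 0 in brain, in liver and for the interaction in every setting tried. Apoe passed between tissues in all of them. The count over all genes in liver was 0, but 4 with no filter beyond 1 count, 10 in DESeq2 and 2 with the replicate block, and 0 to 1 when each library was left out (1 without wild-type replicate 2). For the interaction it was 0, but 1 in DESeq2 and 2 with the replicate block. The cause was not tested. Leaving out each library, Apoa2 in liver ranged from -0.28 to 0.023 (log2), Apoa4 in liver from -0.18 to 0.012 and the Apoe interaction from -0.093 to 0.12, so these directions turned with 1 library. In brain the same-numbered deviations correlated at 0.65, 0.63 and -0.01, so the numbers are not taken as pairs there, and between tissues at 0.05 or less; the block called 0 genes in brain. Over all genes, it took the number with an unadjusted p under 0.05 from 122 to 406 of 18075 in brain. In the interaction the number went from 489 to 909 of 20141 genes, and from 0 to 5 among the 60 list genes. Few counts limit the 8 liver genes in brain, where they did not reach the filter of the main fit. With no filter beyond 1 count, all 10 genes were tested in brain and none passed.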

Other observations

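Apoc4 and Apoc2, apolipoprotein genes beside Apoc1 and Apoe on chromosome 7, were looked at after their values were seen. Their deposited liver counts were fractional, and the sum with the overlapping gene Gm44805 was whole within 0.02 counts in all 6 livers, so reads were split among the 3 genes. Among the 6 other apolipoprotein genes, Apoc4 had the smallest p between genotypes in liver (-0.30 ± 0.09 log2, SE; adjusted p = 0.992 in edgeR and 0.748 with the replicate block). The sum of the 3 genes, which does not depend on the split, was 547 to 612 CPM in the wild-type livers and 471 to 528 CPM in the knockout livers, so these ranges did not overlap; 5.45% of all genes tested had every knockout liver below every wild-type liver, and the sum was not tested.

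Ttr, the transthyretin gene of liver and choroid plexus, varied between brain libraries from 5 to 8856 counts, and the summed level of 7 choroid plexus markers varied from 3.49 to 64.6 CPM. Apoe in the same brains ranged from 255.03 to 328.04 CPM, and on log2 levels its Pearson's r with the choroid plexus sum was -0.15 (rho -0.09; exact permutation p = 0.706 and 0.919; adjusted p = 0.790 and 0.919; r was 0.51 without wild-type replicate 2 and knockout replicate 1).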
